A study of Mus musculus with 2 samples.

Results

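The mitochondrial genome of the mouse encodes 37 genes, and all of them were found in the gene tables of 2 RNA-seq libraries of embryonic hindbrain by a symbol beginning with mt-. They are 13 protein-coding genes, 2 ribosomal RNA (rRNA) genes and 22 transfer RNA (tRNA) genes, among 43346 Ensembl genes in all. The libraries were made from total RNA of hindbrain, the region that forms medulla, pons and cerebellum, at 12.5 days of embryonic age. Per the labels, healthy B6NCrl embryos of both sexes were pooled, 120 for replicate 1 and 88 for replicate 2, and no treatment or second condition is named. RNA longer than 200 nt was taken, 10 ng entered each library, and ERCC spike-in RNAs were added. Both libraries belong to 1 group, so every difference given below is between libraries, not between conditions, and rests on 1 pool on either side.

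The circular mitochondrial genome is transcribed from both strands into long precursor RNAs. tRNAs lie between most of the other genes, and cutting them out frees the rRNAs and mRNAs, most of which then receive a poly(A) tail. The encoded proteins are core subunits of respiratory complexes I, III and IV and of ATP synthase, complex V, and the other subunits come from nuclear genes. A level of a mitochondrial RNA in bulk tissue mixes the number of cells, of mitochondria per cell and of transcripts per genome, which cannot be told apart here.

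The libraries held 31633169 and 29766460 expected counts, the estimated numbers of fragments per gene, in replicates 1 and 2. ERCC spike-ins took 3.41% and 4.36% of them. TPM, the other unit used, divides the counts of a gene by its effective length and scales every library to the same total, so it allows levels of different genes to be compared. All 7 hindbrain markers used for this check, 5 Hox genes, Meis1 and Irx2, reached 1 TPM in both libraries, at a median of 47.5 and 58.6 TPM, against 3 of 6 forebrain markers, whose median was 1.92 and 2.21 TPM. The lists overlap in level, since the forebrain marker Lhx2 was at 25.5 and 25.0 TPM and the hindbrain marker Hoxa3 at 11.2 and 15.7 TPM. Of the marker lists, that of skeletal muscle differed most between the pools, with summed levels of 65.0 and 309.9 TPM in replicates 1 and 2, and erythroid markers summed to 19994 and 15871 TPM.

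Some mitochondrial genes overlap, and some have near-identical partners in nuclear DNA. The reading frames of mt-Atp8 (chrM:7766-7969) and mt-Atp6 (chrM:7927-8607) share 43 bases on 1 mRNA, shown as the capitals at the end of the whole mt-Atp8 gene, which is 204 nt long. The frames of mt-Nd4l (chrM:9877-10173) and mt-Nd4 (chrM:10167-11544) share 7 bases in the same way, shown as the capitals at the end of the last 60 bases of mt-Nd4l. All sequences printed here are from the GENCODE M21 transcripts on mm10, 5′ to 3′ on the strand of the gene.
mt-Atp8: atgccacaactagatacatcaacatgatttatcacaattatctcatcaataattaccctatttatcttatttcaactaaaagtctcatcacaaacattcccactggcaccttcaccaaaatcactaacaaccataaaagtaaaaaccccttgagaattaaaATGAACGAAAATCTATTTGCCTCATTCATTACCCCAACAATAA
mt-Nd4l end: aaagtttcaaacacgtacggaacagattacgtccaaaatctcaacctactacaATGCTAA

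A limit on what could be measured came from nuclear DNA. A sequence search found 7 annotated nuclear pseudogenes that match a mitochondrial gene at 99% identity or more over the aligned part. All 7 lie together on the minus strand of chromosome 1 (chr1:24611535-24616197, a span of 4663 nt). They are copies of mt-Co1 (Gm29216), mt-Co2 (Gm28661), mt-Atp6 (Gm10925), mt-Co3 (Gm28437), mt-Nd3 (Gm28438), mt-Nd4l (Gm10222) and mt-Nd4 (Gm28439), in the order of the mitochondrial genome. The ends of mt-Co2 and Gm28661 show how little separates such a pair, since the 681 bases of the copy are identical to mt-Co2 and only the stop codon of the mitochondrial gene, in capitals, lies outside it. The copies of mt-Atp6 and mt-Nd4l lack only the same stop codon bases, and the 783 bases of Gm28437 lack only the last base of mt-Co3, also in capitals.
mt-Co2 end (chrM:7637-7696): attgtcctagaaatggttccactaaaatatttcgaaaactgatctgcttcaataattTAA
Gm28661 end (chr1:24614885-24614941): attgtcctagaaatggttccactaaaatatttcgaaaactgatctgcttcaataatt
mt-Co3 end (chrM:9331-9390): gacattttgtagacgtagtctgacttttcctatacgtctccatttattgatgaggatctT
Gm28437 end (chr1:24613189-24613247): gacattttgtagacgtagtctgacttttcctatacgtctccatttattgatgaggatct

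Gm28438 lacks the stop codon of mt-Nd3 and differs from it at 1 base, T3C, counted from 1 at the 5′ end of mt-Nd3 with the mitochondrial base first. The first 60 bases of each are shown, with that base in capitals. Gm29216 covers the last 492 bases of mt-Co1 and differs at 6 bases, all near the start of the copy (T1056A, C1057T, A1059G, A1060G, C1062A and A1066T).
mt-Nd3 start (chrM:9459-9518): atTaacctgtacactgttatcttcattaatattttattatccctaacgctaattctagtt
Gm28438 start (chr1:24613060-24613119): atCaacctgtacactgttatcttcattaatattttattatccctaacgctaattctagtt

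The 37 genes took 2.50% and 2.15% of TPM in replicates 1 and 2, a mean of 2.32% ± 0.251 (SD, n = 2). Protein-coding genes held most of it, 2.09% and 1.82% of TPM, and the rRNAs held 0.415% and 0.331%. As shares of all expected counts, the protein-coding genes took 0.818% (95% Wilson interval 0.815% to 0.821%) in replicate 1 and 0.676% (0.673% to 0.679%) in replicate 2. The rRNAs took 0.335% (0.333% to 0.337%) and 0.268% (0.266% to 0.270%). These intervals cover counting error only. Of the counts of the mitochondrial genes alone, protein-coding genes held 71.3% ± 0.464 and rRNAs 28.7% ± 0.464, so the classes were balanced much alike in both libraries.

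The 7 near-identical nuclear copies held a further 122918 and 95562 counts in replicates 1 and 2, or 0.389% and 0.321% of all expected counts. That equals 33.7% and 34.0% of what the mitochondrial genes themselves were given. With the copies' own deposited TPM added, the share of TPM was 3.69% and 3.16%. Another 8 pseudogenes of lower identity are in the tables, and none was given more than 10.2 counts in a library.

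By transcript unit, the stretch of the heavy-strand unit that holds both rRNAs took 29.0% and 28.4% of the mitochondrial counts. The rest of the heavy-strand unit, with 12 mRNAs, took 69.9% and 70.5%. The light-strand unit, whose only mRNA is mt-Nd6, took 1.02% and 1.12%. These shares leave out the near-identical nuclear copies, which all match heavy-strand mRNAs. With the copies, the rRNA and light-strand shares would be smaller. No source used here gives whether strand was kept, so fragments of RNA antisense to mt-Nd6 may be counted with it.

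The tRNA genes could not be measured. All 22, of which 14 are on the heavy-strand unit and 8 on the light-strand unit, were listed at 0 counts and 0 TPM in both libraries. They are 59 to 75 nt long, and the authors' effective length, which is the gene length minus 99 nt, was 0 for each. None of the 2218 Ensembl genes with an effective length of 0 had any counts in either library, so these zeros set no upper limit on the tRNAs. The RNA was also selected for molecules longer than 200 nt. The shortest and the longest, mt-Ts2 (chrM:11613-11671), a serine tRNA, and mt-Tl1 (chrM:2676-2750), a leucine tRNA, are printed whole to show their size.
mt-Ts2: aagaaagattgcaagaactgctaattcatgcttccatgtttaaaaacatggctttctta
mt-Tl1: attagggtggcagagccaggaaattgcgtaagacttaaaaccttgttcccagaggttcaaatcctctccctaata

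The 2 rRNAs, which sit side by side at the start of the heavy-strand unit, stood at different levels. mt-Rnr2 (chrM:1094-2675), the RNA of the large mitoribosomal subunit, was at 3241 and 2743 TPM in replicates 1 and 2. mt-Rnr1 (chrM:70-1024), the RNA of the small subunit, was at 909 and 572 TPM. mt-Rnr2 was thus 3.56-fold and 4.80-fold above mt-Rnr1 per length, and the groups of values do not overlap. Whether rRNA was removed or poly(A) RNA selected is not stated here, so levels of rRNA and mRNA describe the libraries. The median log2(TPM+1) of the rRNAs exceeded that of the 13 mRNAs by 0.60 in replicate 1 and 0.48 in replicate 2, a mean of 0.54 ± 0.08 (SD, n = 2). This excess rests on mt-Rnr2, since mt-Rnr1 lay below the mRNA median of 1131 and 897 TPM in both libraries. With the nuclear copies added to their genes the difference turned, to -0.04 and -0.41 (mean -0.22 ± 0.27). The order of the rRNA and mRNA medians thus also rests on where those fragments are counted.

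Among the mRNAs, both ATP synthase genes were the highest as deposited. mt-Atp8 was at 5076 and 5084 TPM in replicates 1 and 2, and mt-Atp6 at 5268 and 4235 TPM. They ranked 10 and 8 in replicate 1, and 8 and 12 in replicate 2, among all Ensembl genes. The libraries overlap for this pair, so their order is not resolved. The level of mt-Atp8 rests on an effective length of 105 nt and 10111 and 9339 counts, while mt-Atp6 has 582 nt and 58164 and 43119 counts. Divided by full gene length, mt-Atp6 was 1.72-fold and 1.38-fold above mt-Atp8, against 1.04-fold and 0.833-fold in TPM.

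The cytochrome oxidase genes, the catalytic core of complex IV, came out in the order mt-Co1, mt-Co2 and mt-Co3. mt-Co1 (chrM:5328-6872) was at 1517 and 1089 TPM, mt-Co2 (chrM:7013-7696) at 1354 and 915 TPM, and mt-Co3 (chrM:8607-9390) at 1131 and 897 TPM. Each was higher in replicate 1, and neighbours in this order overlap between libraries. mt-Cytb (chrM:14145-15288), the mitochondrially encoded subunit of complex III, was at 1984 and 1807 TPM, above all 3 in both libraries as deposited. With nuclear copies added it was below mt-Co2 and mt-Co3 in both libraries and below mt-Co1 in replicate 1.

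The complex I genes covered the widest range. mt-Nd1 (chrM:2751-3707), the first mRNA after the rRNAs, was at 1760 and 1692 TPM and mt-Nd4 at 974 and 838 TPM. mt-Nd2 (chrM:3914-4951) was at 570 and 504 TPM, mt-Nd6 (chrM:13552-14070) at 469 and 428 TPM, and mt-Nd5 (chrM:11742-13565) at 363 and 370 TPM. As deposited, the 2 shortest of the complex I genes were the lowest, with mt-Nd3 (chrM:9459-9806) at 328 and 244 TPM and mt-Nd4l at 70.3 and 52.8 TPM. With its nuclear copy added, mt-Nd3 was at 1329 and 1122 TPM, below only mt-Nd1 among these genes. The width of this range rests on mt-Nd4l, which with its nuclear copy added was at 424 and 360 TPM, near mt-Nd5. mt-Nd6, the light-strand mRNA, lay 1.24 ± 0.23 below the median of the 12 heavy-strand mRNAs in log2(TPM+1) (SD, n = 2), and 1.98 ± 0.02 below it with the copies added.

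**Figure D1:**
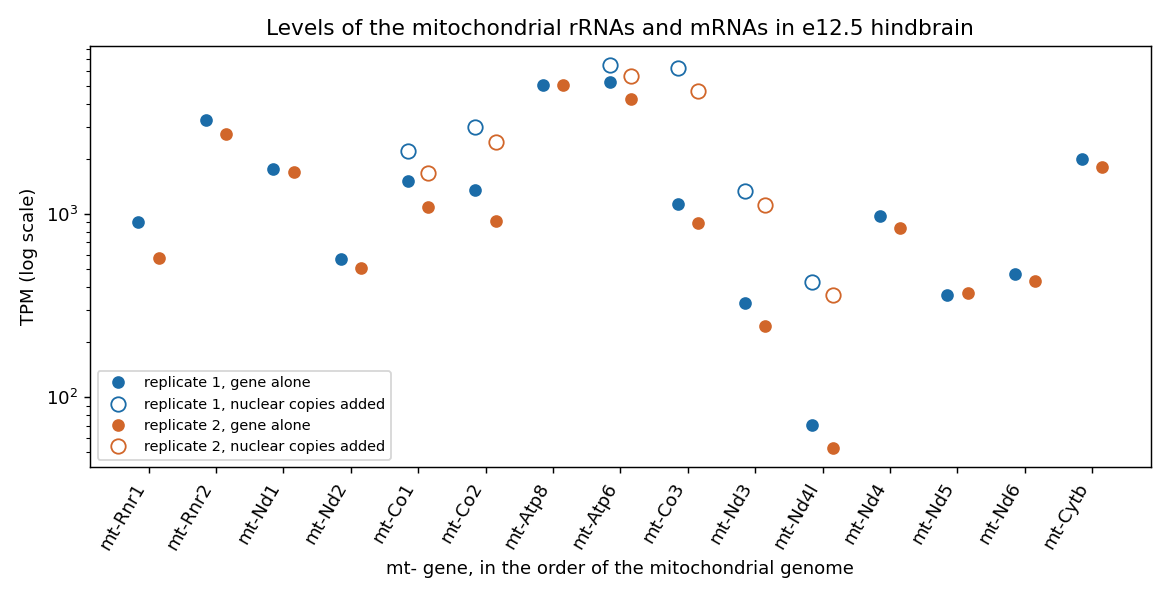
Points give the TPM of the 2 rRNA and 13 protein-coding genes (log axis) in replicates 1 (blue) and 2 (orange), in the order of the mitochondrial genome, and open circles give the level after the counts of nuclear copies are added at the gene's own effective length. With the copies added, mt-Co3 moves from 1131 and 897 TPM to 6223 and 4696 TPM, close to mt-Atp6.

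How the fragments were divided changed the order of the mRNAs. The expected counts of mt-Co3 were 14701 and 10745, against 66166 and 45534 for its copy Gm28437, so the copy held 81.8% and 80.9% of the family. Copies held 83.4% and 85.3% of the mt-Nd4l family, 75.3% and 78.3% of the mt-Nd3 family and 54.7% and 62.7% of the mt-Co2 family. They held 31.4% and 34.7% for mt-Co1 and 18.9% and 25.5% for mt-Atp6. At the other end, Gm28439 was given 0 counts in both libraries, although its 876 bases are identical to the start of mt-Nd4. Among the 5 pairs with no difference along the copy, the share taken by the copy thus ran from 0% for mt-Nd4 to 85.3% for mt-Nd4l in replicate 2.

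The stretch that a pair shares was nearly the whole gene for 5 of the 7 pairs. Counting the positions at which a stretch of 100 nt can start, 684 of the 685 positions of mt-Co3 lie within the part identical to Gm28437. For mt-Co1 the aligned stretch of 483 nt, with 1 mismatch, covered 26.6% of the positions, less than the 31.4% and 34.7% of family counts given to the copy. The levels of annotated nuclear genes within 500000 nt of the block were at most those of Col9a1, a collagen gene at 82.1 and 86.3 TPM. The 6 copies with counts ranged from 359 to 5099 TPM in replicate 1 and from 312 to 3805 TPM in replicate 2, and Gm28439 was at 0. Col19a1, which encodes a collagen and ends before the block, was at 0.58 and 1.05 TPM, and Lmbrd1, a lysosomal membrane protein gene that starts after it, was at 24.8 and 29.7 TPM. Which RNA gave rise to the fragments counted for the copies was not tested.

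**Figure D2:**
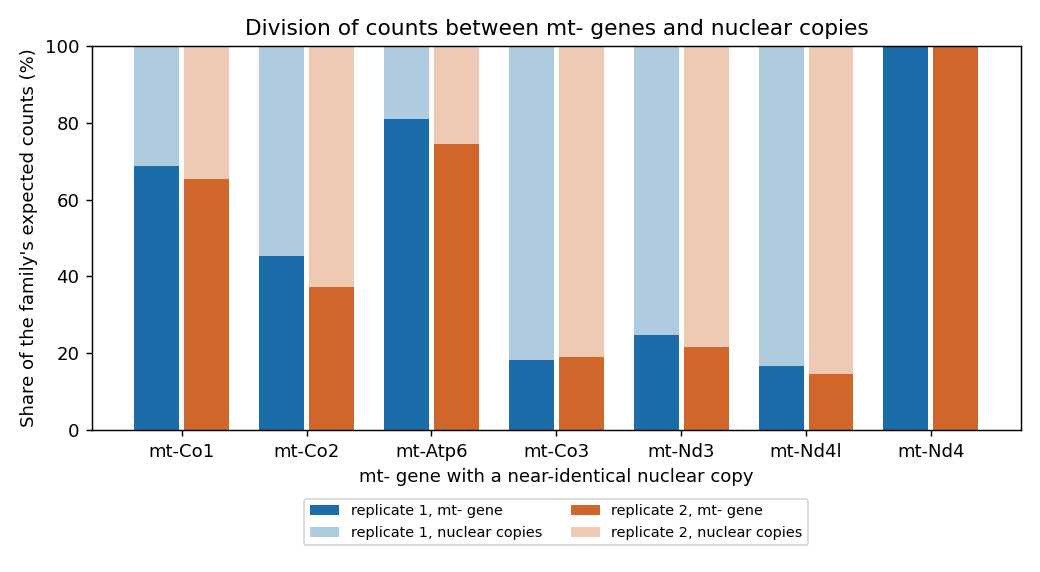
Stacked bars give the percent of each family's expected counts that was assigned to the mt- gene (dark) and to its nuclear copies (light) in replicate 1 (blue) and replicate 2 (orange). The light part is largest for mt-Nd4l, at 83.4% and 85.3%, and is 0% for mt-Nd4.

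The sum over a family was the same by both kinds of deposited count, and its division was not. For the 11 mitochondrial genes with any copy in the tables, the expected counts of gene and copies added up to a whole number within 0.02 in both libraries. For mt-Nd4, mt-Nd5, mt-Nd6 and mt-Cytb the copies held 0 counts, so the count of the gene alone was whole. In the other families a whole sum shows only that shared fragments were divided within the family. For mt-Co3 and Gm28437 the sum was 80867 and 56279, and for mt-Atp6 and Gm10925 it was 71724 and 57891. The posterior mean count that the authors deposited beside the expected count gave the same sums but divided them otherwise. It put mt-Co3 at 32053 and 21031 fragments, with a posterior SD of 17656 and 13794, in place of 14701 and 10745. Its posterior SD for mt-Co2 was 5191 and 5169 fragments around 17017 and 14208, and for mt-Atp6 it was 9287 and 8745 around 52930 and 39771.

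Few genes in the libraries were as uncertain. Of the genes with a posterior mean of 1000 fragments or more, 11 of 7117 in replicate 1 and 10 of 6822 in replicate 2 had a posterior SD above 10% of it. Of these, 4 in each library were mitochondrial, namely mt-Atp6, mt-Co2, mt-Co3 and mt-Nd3, and 4 and 3 were near-identical nuclear copies of mitochondrial genes. mt-Nd4l fell below the cut of 1000 fragments but was also uncertain. Its posterior SD was 352 and 164 around a posterior mean of 527 and 349 in replicates 1 and 2. By contrast, mt-Rnr1, mt-Rnr2, mt-Nd1, mt-Atp8, mt-Nd6 and mt-Cytb had a posterior SD of 0 in both libraries, so their counts do not depend on this division.

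**Figure D3:**
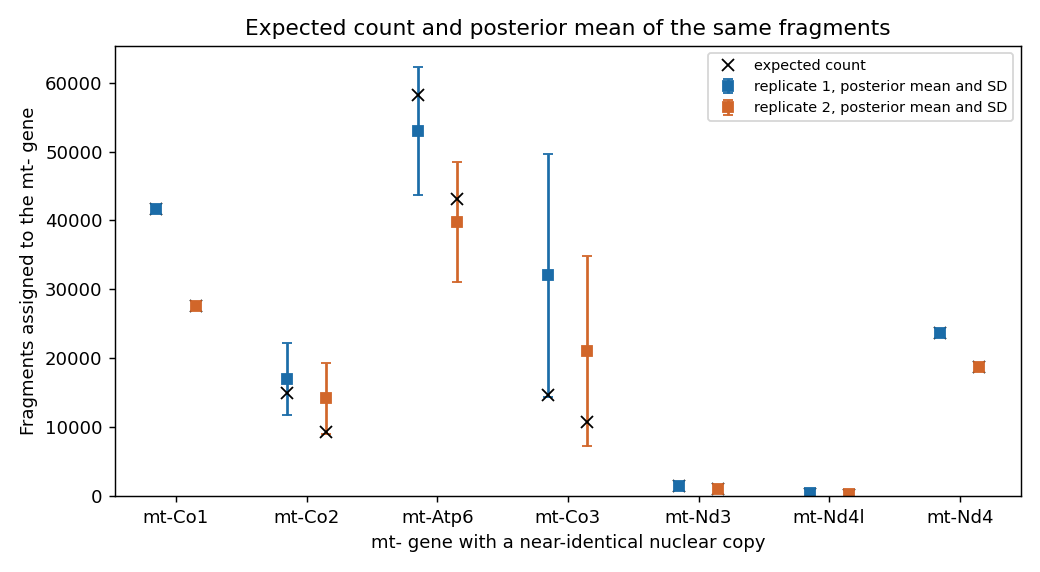
Squares with bars give the deposited posterior mean and SD of the fragments assigned to 7 mt- genes in replicates 1 (blue) and 2 (orange), and crosses give the expected count. The bar of mt-Co3 in replicate 1 spans 17656 fragments on either side of 32053, and the expected count of 14701 lies near its lower end.

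At the level of families, the order of the mRNAs was led by mt-Atp6 (6496 and 5686 TPM), mt-Co3 (6223 and 4696 TPM) and mt-Atp8 (5076 and 5084 TPM), and neighbours among these 3 overlap between libraries. mt-Co2 followed at 2989 and 2455 TPM, above mt-Co1 at 2210 and 1667 TPM. mt-Co3 moved from place 7 to place 2, mt-Nd3 from place 12 to place 8 at 1329 and 1122 TPM, and mt-Nd5 at 363 and 370 TPM became the lowest by mean, overlapping mt-Nd4l at 424 and 360 TPM. Among the genes of the shared mRNAs, mt-Nd4 was 13.8-fold and 15.9-fold above mt-Nd4l as deposited, and 2.30-fold and 2.33-fold with copies. For the other shared mRNA, the ratio of mt-Atp6 to mt-Atp8 was 1.04 and 0.833 as deposited, and 1.28 and 1.12 with copies.

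Position along the genome gave little order. Over the 12 heavy-strand mRNAs, Spearman's rho of start position with TPM was -0.29 in both libraries, and -0.30 and -0.25 with copies added, a description across genes that share a precursor. The libraries ranked the 13 mRNAs almost alike, with a rho of 0.995 between replicates as deposited and 0.973 with copies added.

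Most mitochondrial RNAs were lower in replicate 2. By a two-sided exact binomial test on scaled counts, which allows for counting error only, 13 of the 15 genes with counts were lower and none higher at an adjusted p below 0.05. The same test called 20.4% of all 19210 genes tested, 9.67% lower and 10.7% higher, so at these depths it marks small differences between pools. The median log2 ratio of replicate 2 over replicate 1 was -0.26 for the 15 mitochondrial genes and -0.0019 for all genes. The edgeR exact test, with a common dispersion taken from the same libraries that it compares, called 1 of the 15 lower and none higher. Of all genes it called 1.57%, 0.625% lower and 0.942% higher. Without independent replicates, it marks genes that differ more between the libraries than genes do in general. At an unadjusted p below 0.05 that test held 4 of the 15, against 6.69% of all genes. With total-count scaling 13 were again lower, against a background of 9.57% lower and 10.8% higher. DESeq2 size factors also gave 13, against 9.44% and 10.9%, as did no filter on low counts, against 6.82% and 7.87%. With copies added 13 were lower in the binomial test, against 9.64% and 10.7%, and 1 in the edgeR exact test, against 0.625% and 0.943%.

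The gene that passed both tests was mt-Rnr1. It had 14762 and 8560 counts in replicates 1 and 2, a log2 ratio of -0.69 with an adjusted p of 0.0193 by the edgeR exact test. mt-Rnr2 had 91169 and 71164 counts and a log2 ratio of -0.26, so the 2 rRNAs of the same unit differed in how far the libraries were apart. The next largest ratios were those of mt-Co2 (-0.58, adjusted p = 0.0885, edgeR exact test) and mt-Co1 (-0.49, adjusted p = 0.259). With copies added, mt-Co2 was at -0.30 and mt-Co1 at -0.42.

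The 2 genes that neither test called with TMM scaling were mt-Atp8, with 10111 and 9339 counts and a log2 ratio of -0.01, and mt-Nd5, with 11874 and 11159 counts and a ratio of 0.01. Between these ends, mt-Nd3, mt-Nd4l, mt-Co3 and mt-Atp6 had ratios of -0.44, -0.43, -0.35 and -0.33. With copies added, their ratios were -0.26, -0.25, -0.42 and -0.21, in a different order. mt-Nd4, mt-Nd2, mt-Cytb, mt-Nd6 and mt-Nd1 had ratios of -0.23, -0.19, -0.15, -0.15 and -0.07. When libraries were scaled by their ERCC spike-ins, all 15 were lower in replicate 2, at a median log2 ratio of -0.62, but the median of all genes then shifted to -0.37 and 67.7% of genes were called, 66% lower and 1.7% higher. Beside these ratios stand, with TMM scaling, the muscle markers, of which 9 of 10 were higher in replicate 2 by both tests, with Ttn at 1.98 and 15.3 TPM and the mature muscle gene Ckm at 0.20 TPM in both. The erythroid markers, of which 6 of 8 were lower by the binomial test and none by the edgeR exact test (3 at an unadjusted p below 0.05), include Hbb-y at 8149 and 6362 TPM. Of all genes, the binomial test called 9.67% lower and 10.7% higher, the edgeR exact test 0.625% and 0.942%, and 6.69% had an unadjusted p below 0.05 in the latter. The part of these tissues in the mitochondrial values was not tested.

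**Figure D4:**
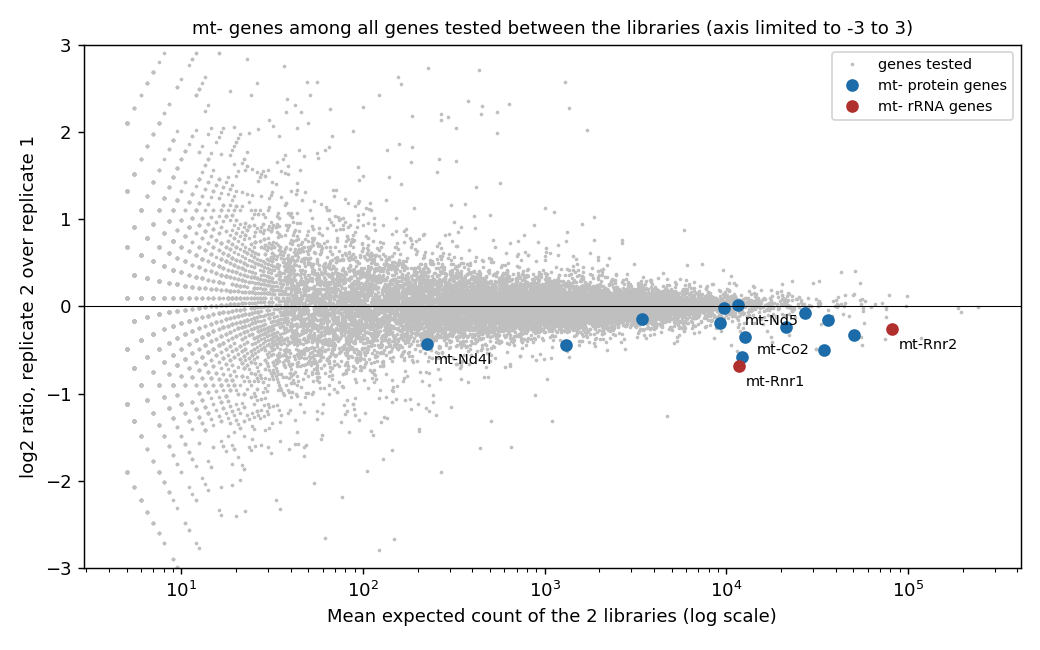
Each point is a gene with counts in both libraries, by its mean expected count (log axis) and its log2 ratio of replicate 2 over replicate 1, with mitochondrial protein-coding genes in blue and rRNA genes in red. Of the 15 mitochondrial genes, 14 lie below 0, from mt-Rnr1 at -0.69 upward, and mt-Nd5 is at 0.01.

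By median, nuclear genes that build the same complexes lay below their mitochondrial partners. For complex I, the median of the 7 mitochondrial genes was 469 and 428 TPM and that of 36 nuclear subunits 227 and 197 TPM, with Ndufc1 at 614 and 559 TPM and Ndufab1 at 456 and 415 TPM the highest and Ndufb4 at 47.2 and 51.1 TPM the lowest by mean. For complex III, mt-Cytb stood 6.63-fold and 6.70-fold above the median of 9 nuclear subunits, of which Uqcrq was highest at 449 and 387 TPM. For complex IV, the mitochondrial median was 2.27-fold and 1.67-fold above that of 10 nuclear subunits, and 5.01-fold and 4.48-fold with copies added. By mean, its nuclear subunits were led by Cox6b1 at 861 and 714 TPM and Cox6c at 780 and 706 TPM. The margin was widest for ATP synthase, at 11.6-fold and 11.7-fold over 14 nuclear subunits, although the catalytic subunit gene Atp5b alone reached 1597 and 1589 TPM. Complex II, which has no mitochondrially encoded subunit, had a median of 171 and 177 TPM over 4 genes. Of 70 listed nuclear subunits of complexes I, III, IV and V, 69 were matched, and 46 of these were lower and none higher in replicate 2 by the exact binomial test, against 9.67% lower and 10.7% higher of all genes. Their median log2 ratio was -0.15. The edgeR exact test called none, against 1.57% of all genes, and held 2 of them at an unadjusted p below 0.05, against 6.69%.

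The nuclear genes that copy, transcribe, process and translate the mitochondrial genome were expressed at far lower levels. Of 49 listed, 48 were matched, and all 48 reached 1 TPM in both libraries, at a median of 27.9 and 27.8 TPM. Among transcription and replication genes, Ssbp1, which binds single-stranded mitochondrial DNA, was highest at 120 and 124 TPM. Tfam, which packs the genome and starts transcription, was at 56.8 and 67.6 TPM, and the RNA polymerase gene Polrmt at 39.4 and 34.6 TPM. Among RNA processing genes, Slirp, which with Lrpprc keeps mitochondrial mRNAs stable, led at 218 and 194 TPM, followed by Hsd17b10, a subunit of the enzyme that cuts tRNA 5′ ends, at 123 and 115 TPM. Among translation factors the elongation factor genes Tufm and Tsfm were highest, at 89.2 and 84.5 TPM and at 53.9 and 54.3 TPM. By the exact binomial test 2 of the 48 were lower and 3 higher in replicate 2, which are smaller shares than the 9.67% and 10.7% of all genes. The edgeR exact test called none, against 1.57% of all genes, and held none at an unadjusted p below 0.05, against 6.69%. The median log2 ratio of the 48 was -0.04. The 2 lower were Polrmt (log2 ratio -0.21) and Mtfmt (-0.23), which formylates the initiator tRNA. The 3 higher were Primpol (0.28), a primase-polymerase gene, Fastkd3 (0.26) and the mitochondrial poly(A) polymerase gene Mtpap (0.14).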

How the data were processed

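The authors deposited 1 gene table per library, made on mm10 with GENCODE M4 from an alignment to the transcriptome, per the accompanying notes. Aligner and quantifier: not given in the sources used here. Deposited expected counts estimate the fragments per gene, not whole where fragments match several genes. TPM was deposited too and, per the file headers, stands beside the effective length that it is scaled by. Posterior mean counts and TPM with a posterior SD were also deposited.

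Symbols and coordinates came from GENCODE M21 (mm10). Nuclear copies were found by blastn 2.17.0 against M21 transcripts (90% identity, 100 nt). For levels of genes and medians over them, the copies' counts were added at the mitochondrial gene's effective length. For the share of TPM, the copies' own deposited TPM was added instead. For tests, expected counts were rounded, genes with 10 or more summed counts kept (spike-ins and 26249 numbered entries, at most 0.000114% of counts, left out) and scaled by TMM in edgeR 4.0.16. The libraries were compared gene by gene with an exact binomial test, two-sided (scipy 1.17.1), with Benjamini-Hochberg adjustment over all genes, threshold 0.05. The test was tried on simulated data that held counting error only, not differences between pools. edgeR's exact test took a common dispersion from an intercept-only fit (coefficient of variation 9.02%). Named were all mitochondrial genes with counts, nuclear copies with 10 or more counts in both libraries, and from each list of nuclear mitochondrial genes some of the 4 highest and the lowest. The members and lists were chosen with earlier results of these data known, and the 99% threshold for copies, Gm28439, mt-Ts2, mt-Tl1, Col9a1, Col19a1, Lmbrd1, Lhx2, Hoxa3, Ttn, Ckm, Hbb-y, Mtfmt, Primpol, Fastkd3 and Mtpap were singled out after seeing values. 1 gene of the hindbrain marker list is not reported here, and the list's values leave it out.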

Additional observations from a re-analysis of the deposited data

How the results depend on the processing

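The share of TPM in mitochondrial genes was 3.43% with nuclear copies added, and the share of expected counts 1.40%. The excess of rRNA over mRNA levels was 0.76 with means in place of medians, and turned to -0.22 with copies added, where the mt-Nd6 difference was -1.98 (both added after seeing the data). Spearman's rho along the heavy strand was -0.28 with full gene lengths and -0.28 with copies. The edgeR exact test called 1 gene between libraries in place of 13, and 1 with copies added, also chosen later. Of all genes it called 1.57% in either case, against 20.4% by the binomial test. Posterior mean TPM was run on the share of TPM only, which was then 2.36%. Removing spike-ins from the total was run on the shares only, which were then 2.57% of TPM and 1.09% of expected counts. A pseudocount of 0.1 left the rRNA excess at 0.54 and the mt-Nd6 difference at -1.24. By the binomial test 13 genes were called with total-count scaling, DESeq2 size factors or no filter on low counts, against 20.4%, 20.4% and 14.7% of all genes. With ERCC scaling 15 were called, against 67.7% of all genes, 66% lower, and mt-Nd5 turned from 0.01 to -0.36.

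From single libraries, the shares ranged from 2.15% to 2.50% of TPM and from 0.943% to 1.15% of counts, the rRNA excess from 0.48 to 0.60, the mt-Nd6 difference from -1.40 to -1.08 and rho from -0.294 to -0.287. No comparison of libraries is left without either replicate. With 2 libraries of 1 group, the spread between pools is poorly known, and the tRNAs are beyond reach. No paired analysis was possible because only 1 group exists.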
